A study of Homo sapiens with 12 samples.

Results

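The N-glycosylation enzymes described here are 42 genes that build, transfer and remodel the sugar chains attached to asparagine residues of secreted and membrane proteins. They were chosen by gene symbol from a list, out of the 26318 genes of the count table, and all 42 passed the filter on low counts that left 16437 genes for testing. Messenger RNA was measured by RNA sequencing in TMD8, an established line of human lymphoma cells (diffuse large B cell lymphoma, activated B cell type). Control cells (6 libraries) carried a scramble short hairpin RNA (shRNA) with no intended target, and the other 6 libraries came from cells carrying an shRNA against IRF4, a transcription factor of activated B cells and plasma cells. Cells of both groups were collected at 24 h, and each group held 3 libraries of a first and 3 of a second library series, a number in the library names with a meaning not given in the sources used here. The sequence of the hairpins, their number and the way of delivery are also not given there, so an effect of a hairpin on other transcripts cannot be told apart from loss of IRF4. All libraries come from 1 cell line, and whether a group's libraries were separate cultures is not in the labels, so the spread behind every p-value is that between these libraries and may be technical.

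N-linked glycans start as a lipid-linked precursor. Sugars are added in order to dolichol phosphate by DPAGT1 and the ALG enzymes. These steps run first on the cytosolic and then on the luminal face of the endoplasmic reticulum (ER). The oligosaccharyltransferase complex moves the finished precursor to nascent proteins, ER glucosidases and mannosidases trim it during folding, and Golgi enzymes turn it into branched, fucosylated and galactosylated complex glycans. Cells that secrete antibody, such as plasma cells, are known for a large ER and a high demand for this pathway.

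The data came from 31.3 to 38.2 M counts per library (M, 1e6). The members averaged from 105 counts (DPM3) to 11896 counts (B4GALT1) per library, and the lowest single value was 59 counts. The target, IRF4, fell from 1480 ± 55.9 to 610 ± 101 counts per 1e6 counts (CPM, on library sizes scaled by the TMM method; SD, n = 6 each), with no overlap between groups and an exact two-sided permutation p of 0.00216, the smallest that 6 against 6 can give. B cell markers were abundant in every library, with a summed level of 4526 to 5109 CPM in controls and, with IRF4 shRNA, 6474 to 6809 CPM (6 genes). T cell markers (2 of 5 in the table) summed to at most 0.291 CPM in controls and, with IRF4 shRNA, 0.674 CPM, with CD3E listed at 0 in every control. Myeloid markers (3 of 5 in the table) summed to at most 0.823 and 0.870 CPM. The 6 fibroblast and epithelial markers summed to 4.11 to 5.67 CPM in controls and, with IRF4 shRNA, to 6.93 to 10.7 CPM, with KRT18 listed at 0 in all 12 libraries; the part of this difference in the results was not tested. The libraries also differed in how their counts deviated with transcript GC content, and the values that touch the members are given with the library series.

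Promoter sequences from RefSeq (GRCh38.p14) were matched for 37 of the 42 members, as 63 windows of 300 bases that run from 250 bases before to 50 bases after a transcript start. They were searched on both strands for motifs of the unfolded protein response and of IRF4, because both belong to the background of this pathway in B cells. The ER stress response element, CCAAT and CCACG set 9 bases apart, was found in 1 window, that of ALG12, or 1.59% of member windows against 0.0769% of all 35116 windows. The composite element of ETS and IRF factors, GGAA and GAAA set 2 bases apart, was found in 1 member window (1.59%), against 2.82% of all windows. It was 1 of the 4 windows of MAN2A2. The interferon-type element, GAAA repeated after 2 bases, was found only for ALG11 among members and in 3.57% of all windows. The unfolded protein response core TGACGTGG and the cyclic AMP palindrome TGACGTCA were in no member window and in 0.729% and 1.85% of all windows, and the second ER stress element (ERSE-II, ATTGG and CCACG set 1 base apart) was in none of the member windows and in 0.0541% of all. The interferon-type and composite elements share their GAAA letters, and both ER stress elements share CCACG. A match describes letters in a window and shows no binding. The stretches that hold the ETS-IRF composite (MAN2A2, the 100 bases before the start, chr15:90902282-90902381, plus strand) and the ER stress element (ALG12, chr22:49918549-49918577, minus strand) are shown 5′ to 3′ with the matched letters and the bases between them in capitals.
MAN2A2: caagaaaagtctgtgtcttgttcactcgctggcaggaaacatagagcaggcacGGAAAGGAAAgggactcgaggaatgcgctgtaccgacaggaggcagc
ALG12: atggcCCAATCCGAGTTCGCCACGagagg

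The main question was which steps of the pathway differed between control and IRF4 shRNA. Over all 12 libraries, the members of precursor assembly, transfer and ER trimming that passed the test were lower with IRF4 shRNA, while Golgi enzymes went in both directions. There were exceptions under other settings. ALG11 passed as higher under library size alone, with the GC trend removed and within library series 2, and OST4 under library size alone. Of the sugar donors, DPM3 passed as higher in series 1 without control replicate 1, and GFPT1 in series 2 without control replicate 4. By edgeR's quasi-likelihood test with Benjamini-Hochberg adjustment over all 16437 genes, 17 of the 42 members (40.5%) were lower and 4 (9.52%) were higher at an adjusted p under 0.05, against 23.9% of all genes lower and 24.2% higher (48.2% in either direction). The median log2 fold change of the members was -0.09, against -0.01 for all genes tested. Scaling by library size alone, without TMM, gave 12 lower and 7 higher members, against 18.1% and 31.9% of all genes, and a member median of -0.02, and it moved the share of higher calls over all genes from 50.3% to 63.9%. Every IRF4 shRNA library was below every control for 11 members and above every control for 3, where 14.7% and 16.2% of all genes did so. These 14 members are the same as the 14 whose call held under all 23 alternative settings.

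**Figure D1:**
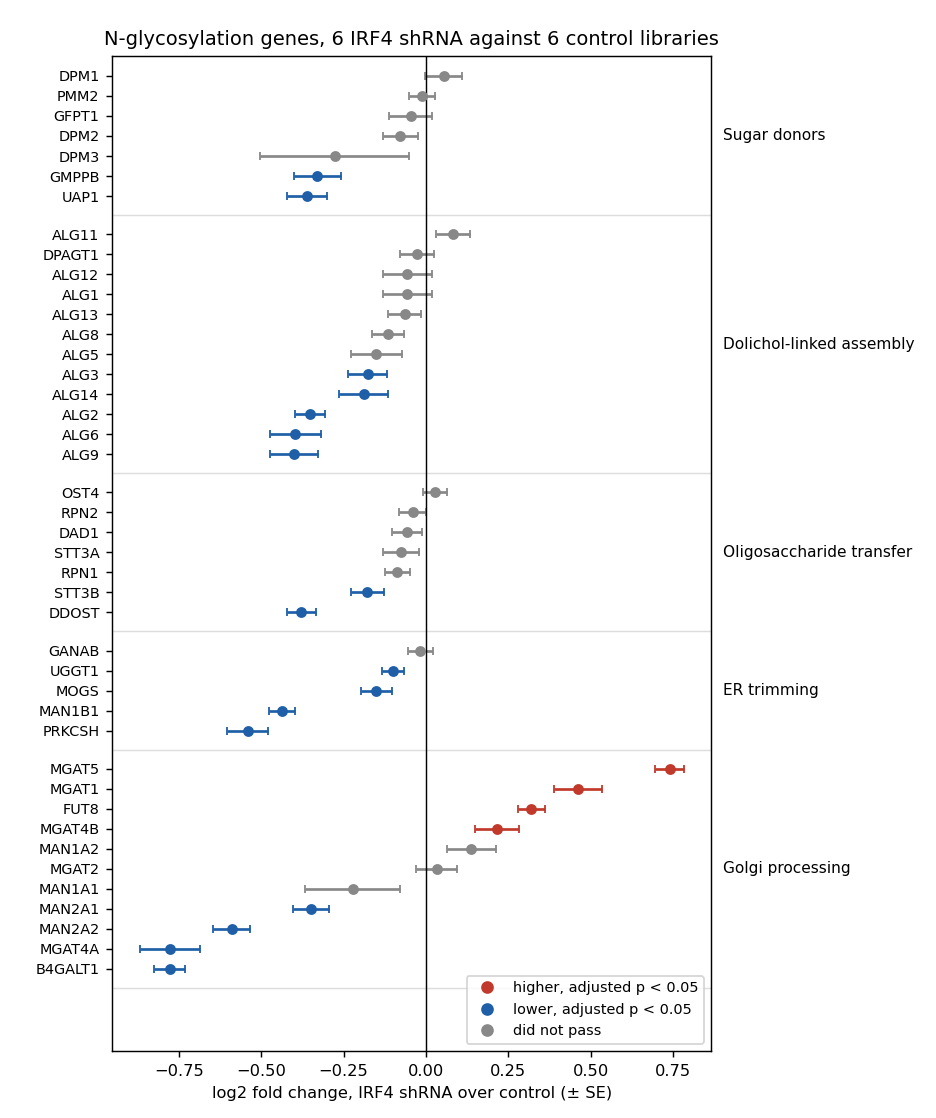
Log2 fold change of each of the 42 members (IRF4 shRNA against control over 12 libraries) by pathway class and, within a class, by size, with points for the estimate and bars for 1 SE either side. The classes up to ER trimming hold no member that passed this test to the right of 0. ALG11 did so under library size alone, with the GC trend removed and within series 2, and OST4 under library size alone. DPM3 and GFPT1 did so within a series with 1 control left out. The Golgi class spans from -0.78 (B4GALT1 and MGAT4A) to 0.74 (MGAT5).

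Of the 7 genes for sugar donors, 2 were lower and none was higher, with a median log2 fold change of -0.08. Such a count of lower genes is near the share over all genes tested, 23.9% lower, with 24.2% higher. UAP1, which makes UDP-N-acetylglucosamine, fell from 12.9 ± 0.462 to 10.01 ± 0.864 CPM (SD, n = 6 each; log2 fold change -0.36, SE 0.06, edgeR adjusted p = 0.000198), and its highest IRF4 shRNA library (11.4 CPM) was below its lowest control (12.2 CPM). GMPPB, which makes GDP-mannose, fell from 29.03 ± 2.94 to 23.1 ± 1.82 CPM, but the groups overlapped through IRF4 shRNA replicate 3 at 26.6 CPM. GMPPB shares 1166 exon bases with RNF123 on the opposite strand and 2852 with AMIGO3 on its own strand, and strand use in counting is not stated. PMM2, the phosphomannomutase that precedes GMPPB, was at 47.7 ± 1.70 and 47.3 ± 1.94 CPM. GFPT1, the first and rate-limiting enzyme of the hexosamine route, did not pass over all libraries (41.3 ± 4.49 against 39.9 ± 1.64 CPM). The 3 subunits of dolichol-phosphate mannose synthase, DPM1 (catalytic), DPM2 and DPM3 (anchoring and stabilising), had log2 fold changes of 0.05, -0.08 and -0.28, none past the threshold.

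Of the 12 enzymes that assemble the glycan on dolichol, 5 were lower and none was higher, with a median log2 fold change of -0.13. Among all genes tested, 23.9% were lower and 24.2% higher. ALG2, a mannosyltransferase of the cytosolic face, fell from 86.2 ± 1.93 to 67.6 ± 4.91 CPM (log2 fold change -0.35, SE 0.05, edgeR adjusted p = 1.42e-05). All 6 IRF4 shRNA libraries of ALG2 were between 61.2 and 72.6 CPM and all 6 controls between 84.1 and 88.8 CPM. ALG9, a mannosyltransferase of the luminal face, fell by 0.40 on the log2 scale (13.2 ± 1.29 to 9.98 ± 0.680 CPM). ALG6, which adds the first glucose, fell by 0.40 on that scale as well (14.2 ± 1.80 to 10.8 ± 0.419 CPM). For ALG9 and ALG6, too, the groups did not overlap. ALG3, which adds the first luminal mannose, and ALG14, which pairs with ALG13 in the second step of assembly, had smaller falls of 0.18 and 0.19 on the log2 scale (edgeR adjusted p of 0.0212 and 0.0441), with overlapping groups. The ALG14 call was lost in 19 of the 23 alternatives and the ALG3 call in 7, and without IRF4 shRNA replicate 2, 4 or 5 the class had 3 lower members. Under library size alone 3 were lower and 1, ALG11, was higher, and ALG11 was also higher with the GC trend removed (log2 fold change 0.10, edgeR adjusted p = 0.0251).

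The other 7 assembly enzymes did not pass. DPAGT1, which starts the precursor and is the target of tunicamycin, was at 15.6 ± 0.637 and 15.3 ± 0.812 CPM. ALG13, the catalytic partner of ALG14, had a log2 fold change of -0.07, and ALG1, the first mannosyltransferase, one of -0.06. ALG1 has near-identical copies and fractional counting could split its reads among them. ALG11, which acts after ALG2, stood at 0.08 and shares 4100 exon bases with UTP14C on the same strand. ALG12, a luminal mannosyltransferase and the member whose window holds the ER stress element, stood at -0.06 (16.1 ± 1.65 against 15.5 ± 1.18 CPM, edgeR adjusted p = 0.557). ALG12 shares 168 exon bases with CRELD2 and 2085 with AL671710.1, both on the opposite strand. Which of these genes the element serves, if any, was not tested. ALG5, which makes dolichol-phosphate glucose, and ALG8, the second glucosyltransferase, stood at -0.15 and -0.12. Precursor assembly as a whole, sugar donors and dolichol-linked steps together, thus had 7 of 19 members lower and none higher, with a median of -0.12. The shares over all genes tested were 23.9% lower and 24.2% higher.

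For oligosaccharide transfer, 2 of 7 subunits were lower and none was higher, with a median log2 fold change of -0.08. That lower count is near the 23.9% of all genes that were lower, and 24.2% of all genes were higher. DDOST, a subunit that helps to hold the complex together, was lowest at 85.1, 88.4 in the median and highest at 90.1 CPM with IRF4 shRNA, against 105, 115 and 126 CPM in controls. No IRF4 shRNA library of DDOST reached the lowest control (log2 fold change -0.38, SE 0.04, edgeR adjusted p = 5.64e-06). The complex has alternative catalytic subunits. STT3A, which acts on proteins while they enter the ER, ran from 48.9 through a median of 53.7 to 60.4 CPM with IRF4 shRNA and from 52.2 through 56.5 to 61.9 CPM in controls. STT3B, which acts after translocation, ran from 94.97 through 99.1 to 109 CPM with IRF4 shRNA and from 103 through 116 to 124 CPM in controls. The groups overlapped for both catalytic subunits; STT3B passed the test (log2 fold change -0.18, SE 0.05, edgeR adjusted p = 0.00792) and STT3A did not (-0.08, adjusted p = 0.278). Whether the 2 subunits differ in their response was not tested. RPN1 and RPN2, the ribophorins, had log2 fold changes of -0.09 and -0.04, and the small subunits DAD1 and OST4 of -0.06 and 0.03.

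Of the 5 genes for ER trimming, 4 were lower and none was higher, with a median log2 fold change of -0.15. Among all genes tested, 23.9% were lower and 24.2% higher. PRKCSH, the beta subunit of glucosidase II, ran from 148 through a median of 159 to 169 CPM with IRF4 shRNA, against 203, 228 and 268 CPM in controls. The lowest control was above the highest IRF4 shRNA library, and the fall was 1.46-fold (231 ± 23.4 to 159 ± 10.1 CPM; log2 fold change -0.54, SE 0.06, edgeR adjusted p = 4.58e-06). GANAB, the catalytic alpha subunit of the same enzyme, was at 222 ± 8.87 and 219 ± 10.2 CPM and did not pass (log2 fold change -0.02); the difference between the subunits was not tested. Per kilobase of exon, the subunits stood in controls at 44.7 (PRKCSH) and 44.1 CPM per kb (GANAB). With IRF4 shRNA they stood at 30.7 and 43.5 CPM per kb. This scale divides by all annotated exons of a gene, which can exceed the transcript in use, so it compares different genes only roughly. MAN1B1, the ER mannosidase I, fell from 52.1 ± 2.50 to 38.5 ± 1.15 CPM (log2 fold change -0.44, SE 0.04, edgeR adjusted p = 3.28e-07), again without overlap. MOGS (glucosidase I) and UGGT1, the glucosyltransferase that senses unfolded glycoproteins, fell by 0.15 and 0.10 on the log2 scale with overlapping groups. Their edgeR adjusted p-values were 0.0159 and 0.0239, and the calls were lost in 5 and 12 of the 23 alternatives, among them library size alone. Without IRF4 shRNA replicate 2 or 4 the class had 2 lower members. The summed level of the 5 genes was 739 ± 25.6 CPM in controls against 632 ± 2.79 CPM with IRF4 shRNA.

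**Figure D2:**
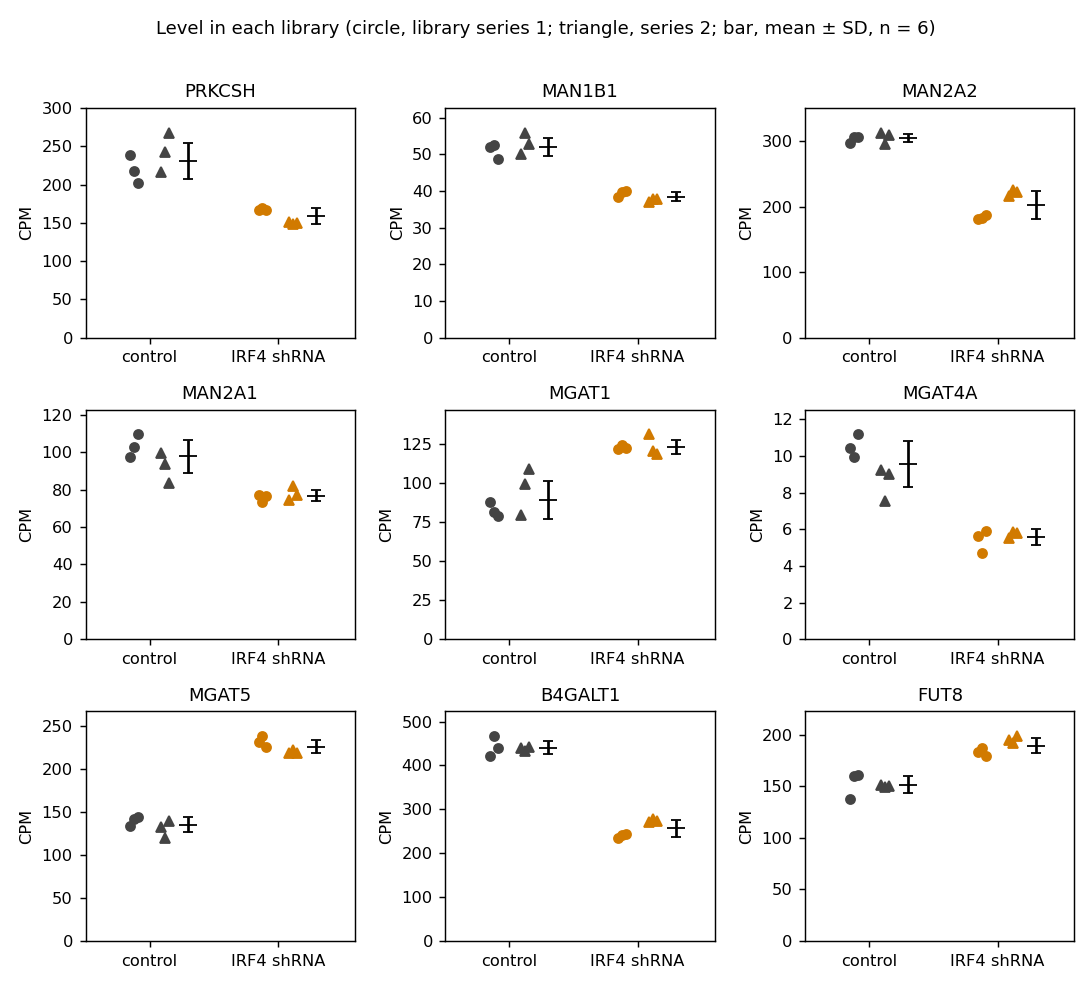
Level in each of the 12 libraries (CPM, axes from 0) for 9 members of ER trimming and Golgi processing; circles are library series 1, triangles series 2, and bars give the mean ± SD of 6 libraries. The 6 IRF4 shRNA libraries of B4GALT1 lie between 234 and 278 CPM, all below the controls, and those of MGAT5 between 218 and 238 CPM, all above the controls.

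The Golgi enzymes were split, with 4 of 11 lower and 4 higher, and a median log2 fold change of 0.03. Among all genes tested, 23.9% were lower and 24.2% higher. B4GALT1, the galactosyltransferase that adds galactose to complex glycans, ran from 234 through a median of 257 to 278 CPM with IRF4 shRNA, against 421, 440 and 467 CPM in controls. It fell 1.71-fold (440 ± 15.2 to 257 ± 19.4 CPM; log2 fold change -0.78, SE 0.05, edgeR adjusted p = 3.04e-09). On the same rough scale per kilobase of annotated exon it was the highest of the 42 members in controls at 89.8 CPM per kb, above DAD1 (72.1) and OST4 (67.9). With IRF4 shRNA it stood at 52.4 CPM per kb, below DAD1 and OST4 at 69.2 each.

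The Golgi alpha-mannosidases II remove mannose before the second branch is built. MAN2A2 ran from 181 through a median of 201 to 226 CPM with IRF4 shRNA, against 296, 306 and 313 CPM in controls, a 1.51-fold fall (log2 fold change -0.59, SE 0.06, edgeR adjusted p = 5.8e-07). Its partner MAN2A1 ran from 73.5 through 76.8 to 82.1 CPM with IRF4 shRNA, against 83.6, 98.5 and 110 CPM in controls (log2 fold change -0.35, SE 0.05, adjusted p = 9.38e-05). For both mannosidases II every IRF4 shRNA library was thus below all controls. MAN2A2 holds the ETS-IRF composite letters in 1 of its 4 windows, and MAN2A1 has no match. Whether the letters bear on the fall was not tested. The Golgi alpha-mannosidases I act earlier. MAN1A1 ran from 51.4 through 69.9 to 89.6 CPM with IRF4 shRNA and from 74.7 through 80.5 to 93.6 CPM in controls, and MAN1A2 from 63.8 through 69.6 to 75.8 CPM and from 52.6 through 65.8 to 73.4 CPM. Neither passed over all libraries (log2 fold changes -0.22 and 0.14), and the library series of MAN1A1 went in opposite directions. MAN1A2 passed as higher in 3 of the 23 alternatives, among them with the GC trend removed (log2 fold change 0.18, edgeR adjusted p = 0.00154).

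The N-acetylglucosaminyltransferases start the antennae of complex glycans. MGAT1, which starts the first antenna, rose from 89.2 ± 12.2 to 123 ± 4.43 CPM (log2 fold change 0.46, SE 0.07, edgeR adjusted p = 8.58e-05), and its lowest IRF4 shRNA library (118 CPM) was above its highest control (109 CPM). MGAT2, which starts the second antenna, was at 46.3 ± 4.17 and 47.3 ± 3.13 CPM and did not pass. The isoenzymes MGAT4A and MGAT4B add the same further branch. MGAT4A, at 0.992 CPM per kb in controls against 4.68 for MGAT4B, ran from 4.72 through a median of 5.70 to 5.89 CPM with IRF4 shRNA, against 7.54, 9.60 and 11.2 CPM in controls. MGAT4B ran from 26.8 through 30.1 to 33.2 CPM with IRF4 shRNA, against 23.7, 24.9 and 30.1 CPM in controls. The pair moved in opposite directions by the test of each gene: MGAT4A fell 1.71-fold (log2 fold change -0.78, SE 0.09, edgeR adjusted p = 5.6e-06) and MGAT4B rose 1.16-fold (0.22, SE 0.07, adjusted p = 0.0144), the latter with overlapping groups. MGAT4B had a log2 fold change of 0.37 in series 1 and of 0.07 in series 2, where it did not pass. Its difference between series did not pass. MGAT4B also shares 105 exon bases with SQSTM1 on the opposite strand.

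MGAT5, which builds the branch that favours poly-N-acetyllactosamine, ran from 218 through a median of 224 to 238 CPM with IRF4 shRNA, against 119, 137 and 144 CPM in controls. It rose 1.67-fold (135 ± 8.94 to 226 ± 7.75 CPM; log2 fold change 0.74, SE 0.04, edgeR adjusted p = 2.79e-09). FUT8, which adds the core fucose, rose from 152 ± 8.53 to 189 ± 7.29 CPM (log2 fold change 0.32, SE 0.04, adjusted p = 1.26e-05), without overlap between the groups. FUT8 has an antisense gene, FUT8-AS1, with 824 shared exon bases. At an absolute log2 fold change of at least 0.5, 4 members were lower (PRKCSH, MAN2A2, MGAT4A and B4GALT1) and 1 was higher (MGAT5), where 9.76% and 11.5% of all genes passed the test at that size in each direction.

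Other genes of the same route, from lists chosen with earlier results of these data known, were counted in the same way. The shares over all genes tested, to set beside these counts, were 23.9% lower and 24.2% higher. Among other genes of sugar donor synthesis and transport, 8 of 18 tested were lower and 3 higher. PGM3, an enzyme between GFPT1 and UAP1, fell from 31.8 ± 2.53 to 21.4 ± 1.53 CPM, GNE, which starts sialic acid synthesis, from 58.0 ± 1.69 to 44.9 ± 3.70 CPM, and FPGT, of the fucose salvage route, from 6.999 ± 0.876 to 4.24 ± 0.528 CPM. For dolichol supply 1 of 9 was lower, NUS1, a subunit of the enzyme that extends dolichol, which fell by 0.41 on the log2 scale. SRD5A3, of dolichol synthesis, and DOLK, which phosphorylates dolichol, stood at 0.11 and 0.09 on that scale and did not pass. Of 4 tested other subunits of the oligosaccharyltransferase, OSTC, TMEM258 and KRTCAP2 were lower (log2 fold changes -0.30, -0.19 and -0.20), and none was higher.

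In glycoprotein folding and disposal, 7 of 14 genes were lower and 2 higher, against 23.9% and 24.2% of all genes. EDEM1, a mannosidase-like protein that directs misfolded glycoproteins to degradation, fell from 331 ± 12.8 to 161 ± 16.9 CPM, and NGLY1, which strips glycans from them, from 129 ± 6.71 to 75.5 ± 8.85 CPM. CANX, the lectin chaperone calnexin, fell by 0.32 on the log2 scale. Of the sensors and factors of the unfolded protein response, 5 of 6 were lower. ERN1, which encodes the sensor IRE1 alpha, fell 3.97-fold, XBP1, the factor that IRE1 activates, 1.88-fold, and EIF2AK3, the sensor PERK, 1.27-fold. Of 13 tested other Golgi glycosyltransferases, 4 were higher and 3 lower, near the shares over all genes. MGAT3, which adds the bisecting N-acetylglucosamine, rose 2.49-fold (33.9 ± 3.94 to 84.5 ± 4.34 CPM), and B3GNT2, which extends poly-N-acetyllactosamine, rose 1.57-fold. B4GALT3, another galactosyltransferase, fell by 0.45 on the log2 scale, in the direction of B4GALT1. Each of these genes that is said to have risen or fallen passed edgeR's test at an adjusted p under 0.05.

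Within library series 1 (3 against 3), 20 members were lower and 5 higher, where 24.6% and 25.7% of all genes were called. Within series 2, 11 were lower and 6 higher, where 18% and 20.2% of all genes were called. By class, series 1 had 2 lower members for sugar donors, 5 for dolichol-linked assembly, 4 for transfer and 4 for ER trimming, none of them with a higher one, and 5 lower and 5 higher Golgi enzymes. Series 2 had 2 lower for sugar donors, 1 for transfer and 3 for ER trimming, again with none higher, and 4 lower and 5 higher Golgi enzymes. In dolichol-linked assembly series 2 had 1 lower member, ALG2, and 1 higher, ALG11 (log2 fold change 0.19, edgeR adjusted p = 0.0422). Among the 9 alternatives, this class kept a higher member only under library size alone and without control replicate 4. Members lower in both series numbered 8, and members higher in both numbered 3, against 12.3% and 14.3% of all genes. The 8 were ALG2, DDOST, PRKCSH, MAN1B1, MAN2A1, MAN2A2, MGAT4A and B4GALT1, and the 3 were MGAT1, MGAT5 and FUT8. In series 2 the MOGS call was lost in 7, the MAN2A1 call in 6 and the MGAT1 and DPM3 calls in 4 each of 9 alternatives. IRF4 itself differed between the series, with log2 fold changes of -1.53 and -1.05. Without control replicate 4, series 2 had 19 lower and 7 higher members, against 26.2% and 25.5% of all genes, and without control replicate 5 it had 2 higher ones, against 14.8% of all genes. Without IRF4 shRNA replicate 4 or 6 it had 3 higher members, against 14.9% and 14.4% of all genes.

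**Figure D3:**
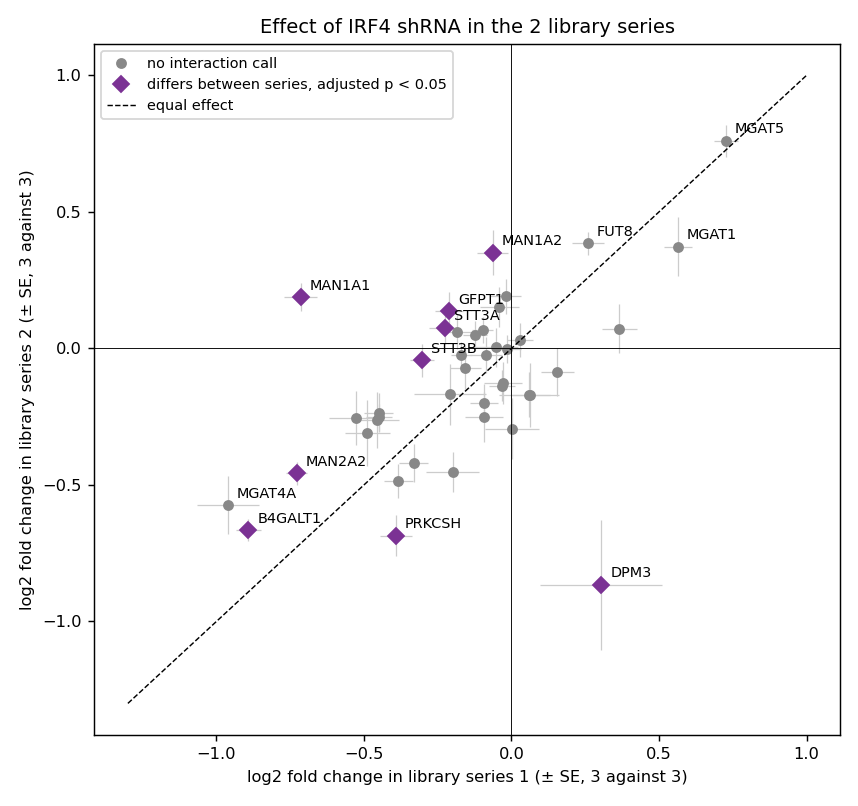
Log2 fold change of each member within library series 1 (x axis) against that within series 2 (y axis), each over 3 IRF4 shRNA and 3 control libraries, with the members that passed the test of the difference between series marked. MAN1A1 lies left of 0 and above 0, at -0.71 in series 1 and 0.19 in series 2.

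The test of the difference itself (interaction of series and group, positive where series 2 had the higher value) passed for 9 members, 7 positive and 2 negative, where 14% of all genes passed. Leaving out 1 library at a time moved the number of members that differed between series from 9 to 22 without control replicate 4, to 10 without control replicate 1, and to between 2 and 5 without any other library. The share of all genes moved as well, to 32.5% and 19% without these controls and to between 4.49% and 8.41% without any other library. MAN1A1, the Golgi mannosidase I, had the smallest p of the 9. Its 3 IRF4 shRNA libraries of series 1 were at 54.5, 53.4 and 51.4 CPM against controls at 80.3, 86.9 and 93.6 CPM. Those of series 2 were at 89.6, 85.2 and 88.7 CPM against controls at 80.8, 77.5 and 74.7 CPM. The gene was thus lower than every control in series 1 and higher than every control in series 2 (log2 fold changes -0.71 and 0.19, difference 0.89, SE 0.08, edgeR adjusted p = 0.000118), although the rise in series 2 (adjusted p = 0.0193) was lost in 4 of 9 alternatives.

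MAN2A2 and B4GALT1 fell in both series, and by more in series 1. MAN2A2 fell by 0.73 in series 1 and 0.46 in series 2 on the log2 scale (difference 0.26, SE 0.05, edgeR adjusted p = 0.0124). B4GALT1 fell by 0.89 and 0.66 (difference 0.21, SE 0.06, adjusted p = 0.0289). MAN1A2 was at 65.5 ± 1.76 against 68.3 ± 4.49 CPM in controls in series 1, and rose to 73.8 ± 1.95 against 58.3 ± 7.42 CPM in series 2 (SD, n = 3 each; difference 0.40, adjusted p = 0.0269). STT3A and STT3B passed as lower in series 1 and not in series 2, with log2 fold changes of -0.23 and -0.30 there and 0.08 and -0.04 in series 2, and both differences passed (0.29 and 0.24, adjusted p of 0.0339 and 0.0446). GFPT1 ran from 37.7 through 39.6 to 42.3 CPM with IRF4 shRNA and from 35.2 through 42.8 to 45.3 CPM in controls, and had log2 fold changes of -0.21 in series 1 and 0.14 in series 2 (difference 0.33, adjusted p = 0.0223). PRKCSH fell in both and by more in series 2 (-0.39 and -0.69, difference -0.31, adjusted p = 0.0491). DPM3, the member with the fewest counts, ran from 1.85 through 2.74 to 3.68 CPM with IRF4 shRNA and from 1.93 through 3.19 to 5.14 CPM in controls. It had log2 fold changes of 0.30 in series 1 and -0.87 in series 2 (difference -1.19, adjusted p = 0.0355).

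GC content moved with these differences. Across the 42 members, which share libraries and are not independent, the difference between series had a Spearman rho of -0.72 with transcript GC content, against -0.54 over the 15832 tested genes with a GC value. For the fold change over all libraries rho was -0.04, but for that within series 1 it was 0.29 and within series 2 -0.31. Over all genes with a GC value these were 0.29 and -0.18. The calls within a series were made without removal of a GC trend. After a GC trend was removed from each library, rho for the difference was -0.02, and a value near 0 follows from the removal itself. Then 5 members passed, where 8.46% of all genes did. They were MAN1A1 (0.79), MAN2A2 (0.35) and B4GALT1 (0.23), which had passed before, together with MOGS (0.32) and GANAB (0.22). PRKCSH turned from -0.31 to 0.11 and no longer passed. For all libraries the trend removal left 16 members lower and 6 higher, against 25.9% and 28.4% of all genes. MAN1A1 and MAN2A2 passed in all 15 alternatives of this test. B4GALT1 passed in 8 and GFPT1 in 7 of them, STT3B in 5, and the other 4 in 4 each.

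**Figure D4:**
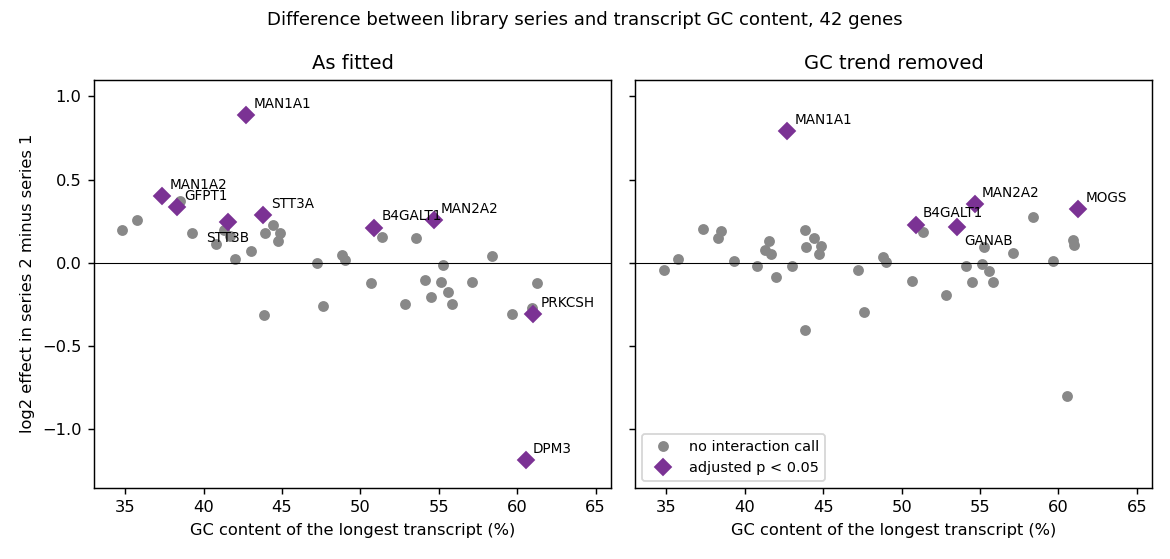
Difference of the log2 fold change between series (series 2 minus series 1) of each member against transcript GC content in percent, as fitted from the counts (left) and after removal of a GC trend from each library (right). The cloud slopes downward on the left (rho -0.72) and is flat on the right (rho -0.02), which follows from the removal itself. MAN1A1 remains highest on the right at 0.79.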

How the data were processed

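Poly(A) RNA of 12 libraries was sequenced after a TruSeq stranded preparation, paired-end at 100 bp, per the labels' protocols. The authors deposited estimated counts per gene without normalization; STAR, HTSeq and hg38 are named per the submitters' processing notes, with no versions. The step that gave fractional values (66.6% are whole at a tolerance of 1e-06), the annotation and strand use are not given in the sources used here. Sample titles all name TMD8, although a cell line label counts upward with the sample.

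The estimated counts, as deposited by the authors, were rounded and then tested with edgeR 4.0.16 in R 4.3.3 (quasi-likelihood, TMM, filterByExpr with minimum count 10, Benjamini-Hochberg over 16437 genes, threshold 0.05). A positive log2 fold change means a higher level with IRF4 shRNA, and its SE was taken from the F statistic. Contrasts were fitted over all libraries, within each library series and as an interaction. CPM use TMM-scaled totals, and levels per kb divide by the union of exons in GENCODE 29, which also gave GC content (longest transcript). The GC trend was a lowess fit (span 0.3) per library. A floor of 3 counts was 0.0786 to 0.0959 CPM, which covers counting error only. Replicates of a group and series differed beyond counting noise (chi-square over degrees of freedom of 2.83 to 35.0), which preparation alone can give and which does not show separate cultures; each library was counted as 1 sample because none was a duplicate within counting noise. The fits were tested on simulated counts. Alternatives were DESeq2 1.42.0, other scalings, filters, blocks, summed counts, GC removal and single libraries left out.

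The members and lists were chosen with earlier results of these data known. All 42 members are named; the lowest, median and highest library are given for those past the threshold with an absolute log2 fold change of at least 0.5, those that differed between series and the partners in 4 pairs. Of each other list up to 3 genes with the smallest p are named.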

Additional observations from a re-analysis of the deposited data

Results flagged for a closer look

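In 4 of 84 groups of 6 libraries, 1 library lay far from the others (its gap to the next, over the range, was past Dixon's 95% critical value), a number that chance alone gives at about 5% of groups. GMPPB was highest in IRF4 shRNA replicate 3 at 26.6 CPM, RPN1 in the same library at 93.4 CPM, and ALG12 in IRF4 shRNA replicate 1 at 17.6 CPM. MGAT4A was lowest in IRF4 shRNA replicate 2 at 4.72 CPM.

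The response to IRF4 shRNA differed between the library series by edgeR's interaction test for 9 members (log2 fold change of series 2 minus series 1). The values were 0.33 for GFPT1, -1.19 for DPM3, 0.29 for STT3A, 0.24 for STT3B, -0.31 for PRKCSH, 0.89 for MAN1A1, 0.40 for MAN1A2, 0.26 for MAN2A2 and 0.21 for B4GALT1. GC content moved with them (rho -0.72 over 42 members).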

How the results depend on the processing

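Of the 21 members called over all libraries, 14 kept their call in all 23 alternatives and 7 (GMPPB, ALG14, ALG3, STT3B, MOGS, UGGT1 and MGAT4B) lost it in some; none of the 21 changed sign, and 10 members without a call did. Library size alone gave 7 higher members. It gave 3 lower and 1 higher in dolichol-linked assembly, 1 lower and 1 higher in transfer and 2 lower in ER trimming. It turned GFPT1 to 0.027, PMM2 to 0.062, DPAGT1 to 0.046, ALG13 to 0.0084, ALG1 to 0.018, ALG12 to 0.017, RPN2 to 0.033, DAD1 to 0.016 and GANAB to 0.056, MAN1A2 in series 1 to 0.0086, and STT3B and UGGT1 in series 2 to 0.024 and 0.045. Summing counts per group and series (fewer samples) left 4096 genes and 11 lower members (11.4% of all genes were lower), with 1 lower for sugar donors, 3 for dolichol-linked assembly, 1 for transfer and 2 for ER trimming. Removing the GC trend left 1390 genes and 5 members that differed between series, 1 higher member in dolichol-linked assembly, PMM2 at 0.0040 and the PRKCSH difference at 0.11; the cause was not tested.

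Same-numbered libraries within a series correlated from -0.074 to 0.022 in their deviations, and 1 of 6 correlated best with its own number. No pairing by number was thus seen, but deviations from means of so few libraries cannot exclude one. With the title number as a block 15 members were lower and 4 higher. With the number in the library name 14 were lower and 4 higher, and 3 in dolichol-linked assembly.

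Leaving out 1 library gave 738 to 5343 genes and 2 to 22 members that differed between series, 8 to 19 lower and 2 to 7 higher members in series 2, 3 to 5 lower in dolichol-linked assembly and 2 to 4 in ER trimming. Without control replicates 5 and 6 together, PMM2, DPM3 and ALG1 turned to 0.013, 0.010 and 0.050. The ranges with 1 library left out were -0.023 to 0.022 for PMM2, -0.048 to 0.0085 for DPAGT1, -0.096 to 0.0060 for ALG1, -0.038 to 0.013 for GANAB and, in series 2, -0.011 to 0.15 for MGAT4B. Without IRF4 shRNA replicate 2, 4 or 5 the count in dolichol-linked assembly was 3.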

Other observations

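ST6GAL1, which caps galactose with sialic acid and was singled out after its values were seen, rose from 693 ± 45.7 to 956 ± 51.2 CPM (SD, n = 6 each; log2 fold change 0.46, SE 0.05, edgeR adjusted p = 1.12e-06), with every IRF4 shRNA library above every control. Within the galactosyltransferase family, and likewise named after their values were seen, B4GALT4 fell by 0.26 on the log2 scale and B4GALT5 rose by 0.23 (edgeR adjusted p of 0.00372 and 0.000479), while B4GALT2 (0.01) and B4GALT6 (-0.21) did not pass. The summed level of the 42 members was 3333 ± 55.8 CPM in controls and, with IRF4 shRNA, 2981 ± 83.7 CPM, or 89.4% of control. Without B4GALT1, MAN2A2 and PRKCSH, all of which fell, the other 39 members summed to 2357 ± 44.3 CPM in controls and, with IRF4 shRNA, 2364 ± 53.6 CPM. These 39 include MGAT1, MGAT5 and FUT8, which rose, so rises offset falls in that sum. Sugar donors, dolichol-linked assembly and transfer hold none of the genes left out. Their summed levels with IRF4 shRNA were 93.5%, 91.4% and 91.3% of control. In each of these classes every IRF4 shRNA library was below every control, as were those of 14.7% of all single genes tested. The gap was narrow for sugar donors (170 against 172 CPM), and the sums were made on the TMM scale only. Single genes weighed in them: ALG2 fell from 86.2 to 67.6 CPM, where the sum of dolichol-linked assembly fell from 366 to 335 CPM. In transfer the largest fall was that of DDOST (log2 fold change -0.38).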
